A study of Hydra vulgaris with 22 samples.

Results

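Epidermal and gastrodermal epithelial stem cells of the freshwater polyp Hydra were compared after 3 days without food, to ask how the transcripts of the 2 body layers differ. The comparison holds 6 of the 22 libraries of the series, taken by their labels: eESC_3d (epidermal, n = 3) and gESC_3d (gastrodermal, n = 3). All 6 came from the central body column of strain AEP, without the apical and basal regions, and from animals fed 3 times per week before starvation. In both groups the cells carried eGFP under the actin promoter and were sorted by FACS with a high gate for the reporter. The labels place eGFP in epidermal cells for one group and in gastrodermal cells for the other, so layer and reporter animals go together and cannot be told apart. Libraries of the same layers at 10 days (eESC_10d, n = 4, and gESC_10d, n = 3) serve for reference. So do those of interstitial stem cells sorted by cnnos1::eGFP (ISC_medium, n = 3, and ISC_high, n = 4, at 2 to 5 days). These sorted libraries also shared the fit used to test the 6 libraries, through the filter, the scaling and the spread. The 2 unsorted body columns at 10 days were not in that fit and serve only for reference. They are a single library of animals with actin::eGFP labelled as epidermal and a single library of cnnos1::eGFP animals. The series holds no unsorted library of animals with gastrodermal eGFP. The labels do not say whether replicates came from separate cultures, so p-values measure the spread between these libraries.

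The Hydra body wall is made of a pair of epithelial sheets on either side of an extracellular matrix, the mesoglea. Epidermal cells form the outer surface, carry longitudinal muscle processes and house many nematocytes and nerve cells. Gastrodermal cells line the gut cavity, carry circular muscle processes and take up food, and gland cells lie among them. In the body column both kinds of cell divide continuously and act as the stem cells of their own layer, while interstitial stem cells give rise to nematocytes, nerve cells, gland cells and germ cells.

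Reads were counted on assembled transcript contigs. A contig identifier ends in an isoform number, and the identifier without that number is called here a stem: the 61501 contigs belong to 44306 stems, of which 8844 (20.0%) hold more than 1 contig. None of the contig identifiers (0) and none of the stems (0) was found among the 28925 genes of the RefSeq table for Hydra vulgaris. No gene name or role is therefore given to any of them, no marker of either layer could be looked up, and the labels of the layers could not be checked against markers. Contig lengths are not used here, so shares of counts below describe where the reads went and do not rank genes by expression. In bulk samples of this kind, fewer cells of a type and less RNA per cell cannot be told apart.

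Library totals were 17159718, 18473512 and 17815035 counts in eESC_3d and 20326422, 19422544 and 25455639 counts in gESC_3d. Replicate C of gESC_3d stood apart from the other libraries of its group. It differed from gESC_3d A and B by a median of 0.49 and 0.51 log2 units per stem, whereas A and B differed from each other by 0.19, and it lay closest to gESC_10d A, at 0.26. The 3 pairs within eESC_3d differed by 0.27 to 0.39. The 9 pairs between the layers differed by 0.82 to 1.19, so every pair between layers was farther apart than every pair within a layer. In these pairs 44.1 to 55.9% of stems differed by more than 2-fold, against 11.1 to 16.4% within eESC_3d and 8.51 to 22.3% within gESC_3d.

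About as many stems were higher in epidermal as in gastrodermal cells. In eESC_3d vs gESC_3d, 9075 of 18288 stems tested (49.6%) passed an adjusted p-value of 0.05 in edgeR's quasi-likelihood test, 4520 of them higher (24.7% of all tested) and 4555 lower (24.9%) in eESC_3d. The difference was at least 2-fold for 3709 higher stems (20.3%) and 3366 lower stems (18.4%). The 3 libraries of one layer lay wholly above the 3 of the other for 8650 of the called stems (95.3%). Over all stems tested this share was 56.2%, and the calls rest on the same values. In a fit of the 6 libraries alone, 7035 of 13956 stems were called, 2952 higher and 2602 lower by 2-fold or more. Without gESC_3d C, 8316 stems were called, with 3384 higher and 3264 lower by 2-fold or more. Scaling by library size alone moved the median log2 fold change of stems with at least 1 CPM (counts scaled to a common library total, with TMM factors) to 0.11, against -0.076 with TMM, and 58.0% of calls were then higher, against 49.8%.

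A smaller part of the stems was shown to be alike in the layers. For 4825 stems (26.4%) the 95% interval of the log2 fold change lay within 2-fold in both directions, and 735 of these were called. Of the 9213 stems that were not called, 5123 had wider intervals, so for them the data show neither a difference nor likeness. Without gESC_3d C, 4658 stems lay within 2-fold.

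The folds reached far in both directions. At least 16-fold differences numbered 1582 higher and 1579 lower stems. At 64-fold there were 1095 higher and 964 lower, and at 256-fold 484 higher and 231 lower. Among stems with at least 10 CPM in the layer where they were higher, 254 exceeded 256-fold toward eESC_3d and 106 toward gESC_3d. Fitted folds of stems without counts in one layer depend on the small count that the fit adds. With such stems set to the fold that 3 counts in each library of that layer would give, 1056 were at least 16-fold higher and 1195 lower, 565 higher and 586 lower at 64-fold, and 253 higher and 108 lower at 256-fold. The excess of epidermal stems at 64-fold was therefore not held with these bounds, and that at 256-fold was. The counts were not compared by a test.

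Large differences were less frequent among the stems with the most reads. Of the 5687 stems with a mean of 10 to 100 CPM, 32.6% were called with at least 2-fold and 48.1% lay within 2-fold by their interval. Of the 184 stems over 1000 CPM these shares were 19.6% and 72.3%. Below 1 CPM, 39.9% of 5878 stems were called with at least 2-fold, but only 42 stems (0.715%) had an interval narrow enough to lie within 2-fold. Low-count stems can therefore show a difference here but hardly ever likeness.

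**Figure D1:**
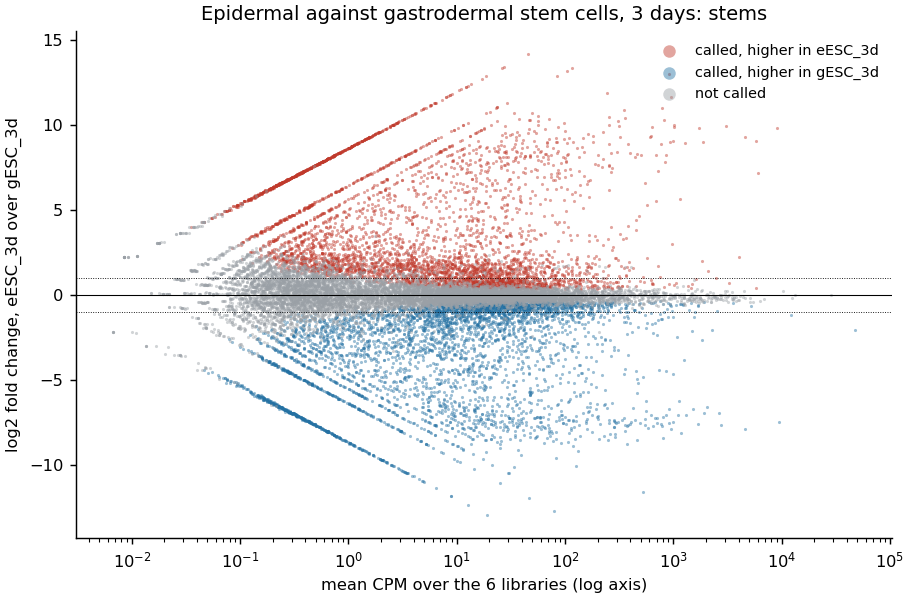
Log2 fold change of each stem, eESC_3d over gESC_3d, against its mean CPM over the 6 libraries on a log axis. Each point is a stem tested, coloured by whether it was called higher in eESC_3d (4520), called higher in gESC_3d (4555) or not called, and dotted lines mark 2-fold. The cloud narrows around 0 toward high CPM.

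The stems named here were taken by a rule. In each direction they are the stem with the largest fold and the stem with the largest CPM difference, among called stems with a mean of at least 10 CPM whose groups did not overlap. All 4 consist of a single contig, so the division of reads among contigs of a stem does not enter.

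Stem c4096_g1 had the largest fold toward the epidermis. It had 89.6, 128 and 57.1 CPM in eESC_3d A, B and C, and 0 counts in all 3 gESC_3d libraries. With each gESC_3d library at the floor of 3 counts (0.121 to 0.196 CPM), it was at least 552-fold higher in eESC_3d by group means (edgeR adjusted p 6.7e-10). It was as high in eESC_10d, at 89.5 ± 6.37 CPM (SD, n = 4), and 0 to 9 counts were found in gESC_10d. The 7 interstitial libraries held 0 to 3 counts. The unsorted actin library had 14.8 CPM (95% Wilson interval 13.0 to 16.9) and the unsorted cnnos1 library 8.02 CPM (6.66 to 9.65), levels between those of the layers. Intervals and floors cover counting error only, since reads are not independent molecules.

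Stem c26254_g3 had the largest CPM difference toward the epidermis. It had 23940, 12363 and 17877 CPM in eESC_3d A, B and C, against 19.5, 24.0 and 15.2 CPM in gESC_3d A, B and C. Every epidermal library was far above every gastrodermal one, with a log2 fold change of 9.85 (SE 0.487, adjusted p 7.3e-12). The gastrodermal level was close to that of interstitial cells, at 24.4 ± 11.4 CPM in ISC_medium (n = 3) and 20.4 ± 8.31 CPM in ISC_high (n = 4). At 10 days it averaged 10986 ± 1160 CPM in eESC_10d, against 25.2 ± 2.14 CPM in gESC_10d. Whole body columns held 1725 CPM (1705 to 1746) with the actin reporter and 1944 CPM (1921 to 1967) with the cnnos1 reporter.

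Stem c14044_g1 had the largest fold toward gESC_3d. It had 0 counts in all 3 eESC_3d libraries, against 35.1, 31.0 and 48.8 CPM in gESC_3d A, B and C. By group means it was at least 220-fold lower in eESC_3d, with each library there at the floor of 3 counts (0.152 to 0.202 CPM, edgeR adjusted p 2.9e-09). At 10 days it had 0 to 1 counts in the 4 eESC_10d libraries and 35.7 ± 9.27 CPM in gESC_10d (n = 3). In the unsorted actin line, whose eGFP is labelled as epidermal, it had 0 counts in a whole body column, which allows up to 0.194 CPM. The unsorted cnnos1 line had 21.9 CPM (19.6 to 24.5). A whole body column holds both layers, so in the actin library the stem was not found in the gastrodermis either. In the epithelial libraries layer and reporter animals go together, and a difference between lines of animals was not tested for this stem.

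Stem c26324_g1 had the largest CPM difference toward the gastrodermis, and it varied widely between replicates. It had 26541, 10989 and 17123 CPM in eESC_3d A, B and C, against 73423, 40615 and 114594 CPM in gESC_3d A, B and C. The groups did not overlap, with a log2 fold change of -2.06 (SE 0.733, adjusted p 0.025), but the adjusted p was 0.094 without eESC_3d B, 0.070 without eESC_3d C and 0.094 without gESC_3d C. It took 1.17 to 2.30% of all counts in eESC_3d and 3.19 to 11.2% in gESC_3d. At 10 days it overlapped between the layers, with 2971 to 76773 CPM in eESC_10d and 44207 to 159322 CPM in gESC_10d (adjusted p 0.13). In ISC_high it had 76119 ± 17450 CPM (n = 4), a level like that of gESC_3d, at 76211 ± 37068 CPM.

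**Figure D2:**
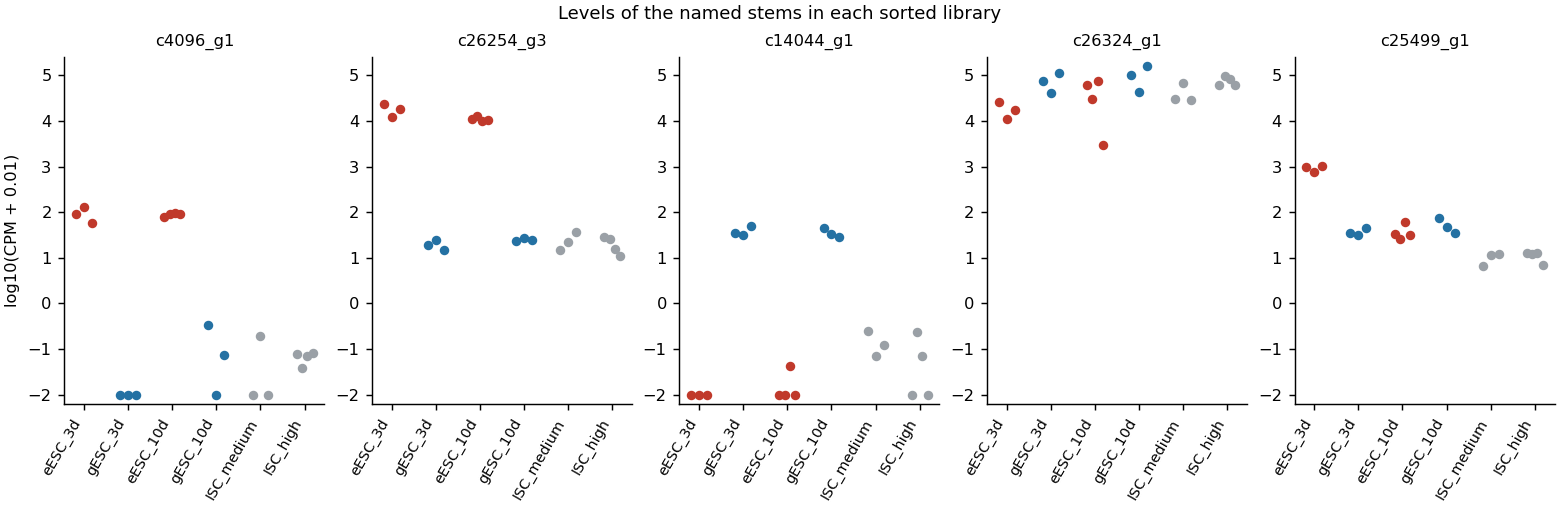
Level of 5 stems in each sorted library, as log10(CPM + 0.01), with 1 point per library and epidermal libraries in red, gastrodermal in blue and interstitial in grey. The points at -2 are libraries without counts. c4096_g1, c26254_g3 and c14044_g1 separate the epidermal from the gastrodermal libraries at both times. c26324_g1 spreads widely within groups, and c25499_g1 separates the epidermal from the gastrodermal libraries at 3 days only.

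Much of the most counted RNA was common to both layers. Of the 10 stems with the highest mean CPM in each layer, 6 were shared, and 4 of these lay within 2-fold by their interval. Of the top 100, 70 were shared, and of the top 1000, 701. Even so, 16 of the top 100 epidermal stems were at least 16-fold higher in eESC_3d and 15 of the top 100 gastrodermal stems at least 16-fold higher in gESC_3d. The 20 non-overlapping called stems with the largest CPM excess in eESC_3d took 9.19 to 10.2% of counts in eESC_3d and 0.678 to 0.749% in gESC_3d. The 20 with the largest excess in gESC_3d took 1.81 to 2.91% of counts in eESC_3d and 10.7 to 18.0% in gESC_3d, with c26324_g1 among them. In each of the 2 sets, 19 of 20 were called the same way at 10 days, against 87.6% of all stems called at 3 days. The sets were not compared with that share by a test.

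The 10 most counted stems of a library took 13.7 ± 1.56% of counts in eESC_3d and 17.3 ± 2.27% in gESC_3d (SD, n = 3 each; exact two-sided permutation p = 0.2). At a common depth of 17159718 counts, 26012 ± 881 stems had a count in eESC_3d and 24422 ± 634 in gESC_3d (exact two-sided permutation p = 0.1, the smallest this design allows), and the groups did not overlap. After Benjamini-Hochberg adjustment over the 9 measures compared, both p-values were 0.3, and no measure could have passed 0.05 with 3 against 3 libraries. The median SD of a stem between replicates was 0.31 log2 units in eESC_3d and 0.36 in gESC_3d.

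Few stems with at least 30 counts in every library of a layer were close to absent from the other layer at this depth. A stem was counted as found in one layer when all 3 of its libraries held at least 30 counts and none of the 3 of the other held more than 3. There were 377 such stems in eESC_3d, 3.84% of the 9826 stems with at least 30 counts in each of its libraries. In gESC_3d there were 302, 3.05% of 9889. Stems far higher in one layer can fall outside both sets, as c26254_g3 did with 325 to 378 counts in gESC_3d. These sets were chosen on the 3-day counts, so only other libraries can be read against them. For the counts that follow, no share over all stems with at least 30 counts is given, so they describe these sets only. In the own layer at 10 days, 375 of the 377 epidermal stems and 299 of the 302 gastrodermal stems had more than 3 counts in every library. In the other layer at 10 days, 244 (64.7%) of the epidermal stems were still at or under 3 counts in every gESC_10d library, and 64 (21.2%) of the gastrodermal stems in every eESC_10d library. That gap rested on 1 library: in eESC_10d A, B and D, 198 (65.6%) of the gastrodermal stems were at or under 3 counts, a setting chosen after seeing the data.

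Taken singly, 256 of the 302 gastrodermal stems were at or under 3 counts in eESC_10d A, 237 in B, 67 in C and 229 in D. The 302 gastrodermal stems summed to 0.642% of their mean gESC_3d level in eESC_10d A, 1.63% in B, 6.10% in C and 0.660% in D. In eESC_3d, where they were chosen to be at the floor, they summed to 0.355 to 0.519%. The 377 epidermal stems summed to 0.329 to 0.428% of their eESC_3d level in gESC_10d. Library eESC_10d C thus held the most reads of these stems, and results at 10 days that rest on it are given with and without it. In ISC_high, 275 (72.9%) of the epidermal and 208 (68.9%) of the gastrodermal stems were at or under 3 counts in all 4 libraries. The share over other stems is not given, so these values are not read as a trait of the sets.

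Summing contigs into stems changed which differences were called. At the level of contigs, 10656 of 28522 (37.4%) were called in eESC_3d vs gESC_3d, 5131 higher (18%) and 5525 lower (19.4%). The common biological coefficient of variation was 0.573 over contigs and 0.294 over stems. Of the 5762 called contigs that share a stem with others, 4667 (81.0%) belonged to a stem called the same way. The stem was not called for 845 (14.7%) and was called the other way for 250 (4.34%). Of the 3081 such contigs that differed at least 16-fold, 533 (17.3%) belonged to a stem that differed by less than 2-fold, and 1776 (57.6%) to a stem at least 16-fold apart in the same direction.

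Some stems held contigs of opposite direction. In 317 stems at least 1 contig was called higher and another lower in eESC_3d. Their sums were called for 202 stems, 98 higher and 104 lower, and the median size of their log2 fold change was 0.83. For 108 of them the sum lay within 2-fold by its interval. In the other direction, 1291 called stems had no called contig, 726 of them with several contigs. Stems of a single contig, where no division is possible, were called at 50.6% (5437 of 10741), and stems of several contigs at 48.2% (3638 of 7547), which have more reads, with a median of 8.04 CPM against 2.85 CPM.

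**Figure D3:**
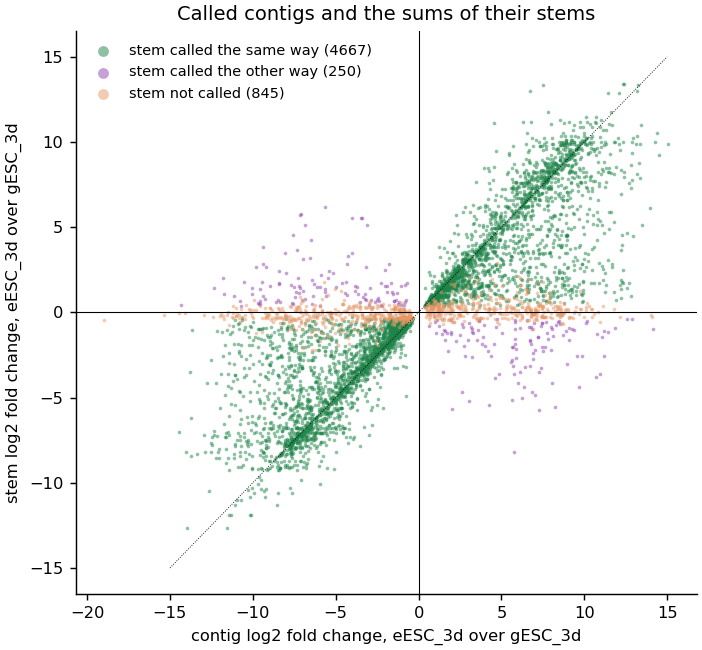
Log2 fold change of the sum of each stem against that of its contig, eESC_3d over gESC_3d, for called contigs of stems with several contigs. Green points belong to stems called the same way (4667), purple to stems called the other way (250) and orange to stems not called (845), and the dotted line marks equality. The orange points lie along 0 on the stem axis across contig folds of both directions.

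The stems called at least 2-fold higher in one layer at 3 days took a larger share of counts in that layer at 10 days too. Libraries of 10 days and of interstitial cells shared the fit behind the 3-day calls, through the filter, the scaling and the spread, but not the 3-day means. The 3709 epidermal stems took 20.4 ± 1.94% of counts in eESC_10d (n = 4) and 2.01 ± 0.188% in gESC_10d (n = 3). In the libraries they were chosen on, they took 22.5 ± 0.868% in eESC_3d and 2.02 ± 0.0918% in gESC_3d. They took 6.05 ± 0.501% in ISC_medium (n = 3) and 2.55 ± 0.211% in ISC_high (n = 4). The 2952 stems chosen in a fit of the 3-day libraries alone took 21.3 ± 2.06% in eESC_10d, 2.23 ± 0.215% in gESC_10d and 9.11 ± 0.847% in ISC_medium. In whole body columns the 3709 stems took 10.1% of counts in the actin line and 9.53% in the cnnos1 line (95% Wilson interval 9.51 to 9.55).

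The 3366 gastrodermal stems took 8.56 ± 4.12% of counts in eESC_10d and 33.0 ± 3.79% in gESC_10d. At 3 days they took 5.08 ± 0.500% in eESC_3d and 30.5 ± 4.49% in gESC_3d. A single stem, c26324_g1, carried most of the spread. Without it the shares were 3.93 ± 0.953% in eESC_10d and 23.1 ± 1.79% in gESC_10d, and 3.36 ± 0.0954% in eESC_3d and 23.7 ± 0.542% in gESC_3d. In eESC_10d A, B and D alone the share was 6.85 ± 2.82% with this stem and 3.46 ± 0.151% without it. The 2602 stems chosen in a fit of the 3-day libraries alone took 8.27 ± 4.15% in eESC_10d and 32.6 ± 3.82% in gESC_10d. The share of the 3366 stems in ISC_high was 12.2 ± 2.25% with c26324_g1 and 3.43 ± 0.194% without it. In the unsorted libraries the 3366 stems took 20.8% in the actin line and 25.8% in the cnnos1 line, and 14.2% and 14.6% without c26324_g1. The 4825 stems within 2-fold took 61.8 ± 1.13% of counts in eESC_3d and 57.5 ± 5.01% in gESC_3d, and 74.7 ± 2.54% in ISC_medium and 74.5 ± 2.07% in ISC_high.

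**Figure D4:**
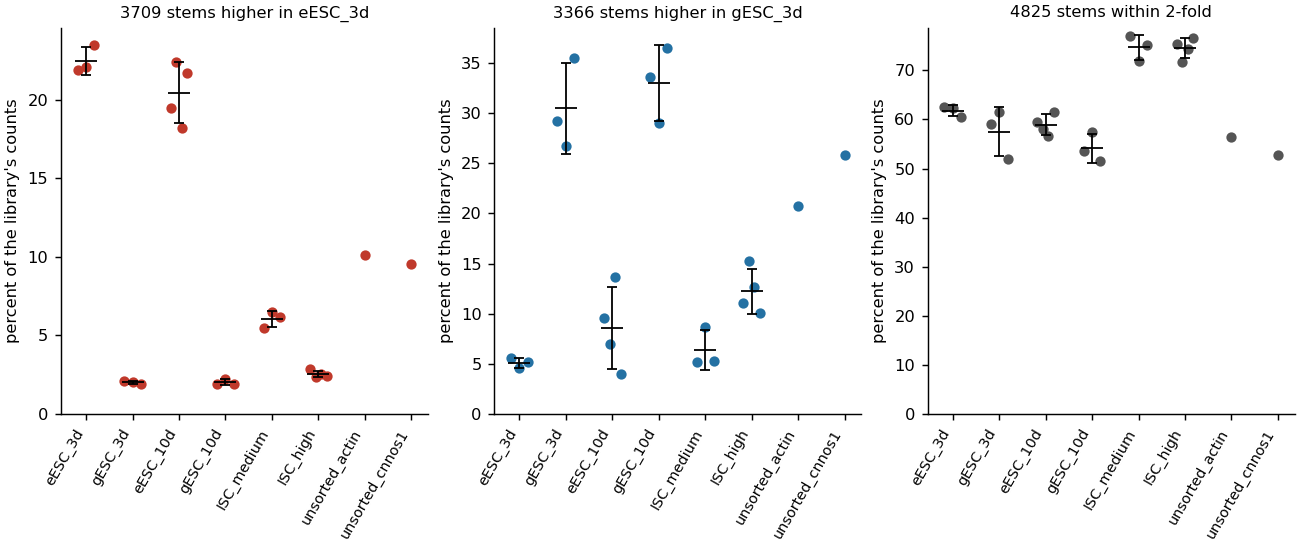
Percent of each library's counts in the 3709 stems at least 2-fold higher in eESC_3d, the 3366 at least 2-fold higher in gESC_3d and the 4825 within 2-fold, with 1 point per library and the mean and SD where a group has several. The epidermal stems took 18.2 to 23.5% in epidermal libraries and 1.89 to 2.23% in gastrodermal ones, and the 2 unsorted libraries lay between them.

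Some stems with a moderate difference between the layers were as high in interstitial cells or unsorted columns as in their higher layer. Few stems with a large difference were. The unsorted columns hold both layers. Among stems higher in eESC_3d by 2- to 4-fold (1196), 4- to 16-fold (931) and at least 16-fold (1582), 29.5%, 18.2% and 2.97% had at least as high a CPM in ISC_medium. The shares as high in ISC_high were 22%, 11.3% and 3.29%, and those as high in both unsorted libraries 33.1%, 27% and 2.59%. Among stems higher in gESC_3d by the same steps (837, 950 and 1579), 17.8%, 8.11% and 2.15% were as high in ISC_medium and 32.9%, 16.8% and 5.13% in ISC_high. In both unsorted libraries the shares were 9.68%, 15.3% and 3.74%, so for gastrodermal stems the middle step was the highest there. For the within-2-fold stems, 52.1% were as high in ISC_medium, 69% in ISC_high and 10.6% in both unsorted libraries as in the higher of the layers. CPM of the unsorted libraries use plain totals and those of sorted libraries TMM-scaled ones, so the unsorted shares also carry this difference of scale. The mean TMM factor was 0.98 in eESC_3d and 0.86 in gESC_3d. The shares were not compared by a test, and no marker could be used to name the cells concerned.

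The layer difference was measured again at 10 days, in 7 other libraries of the same fit. In eESC_10d vs gESC_10d, 9500 stems (51.9%) were called, 5116 higher (28%) and 4384 lower (24%) in eESC_10d. Of the 9075 stems called at 3 days, 8988 (99.0%) kept their sign in the later libraries, against 75.1% of the stems not called at 3 days. Of the called stems, 7953 were called the same way, which is 87.6% of the 3-day and 83.7% of the 10-day calls. In the same fit, 2 stems were called the other way. With the 3-day and the 10-day libraries in separate fits, 6976 stems called at 3 days were tested at both times, of which 6935 (99.4%) had the same sign and 6439 (92.3%) were called the same way. Without eESC_10d C, 9113 stems were called at 10 days. Across all 18288 stems, which share libraries and are not independent, the log2 fold changes at the 2 times had a Pearson r of 0.94 and a Spearman rho of 0.91.

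The most extreme gastrodermal folds were smaller at 10 days than at 3 days, and close to the 3-day value without eESC_10d C. The 964 stems at least 64-fold lower in eESC_3d had a median log2 fold change of -7.29 at 3 days and -5.29 at 10 days. Without eESC_10d C the 10-day median was -7.15, over the 960 of these stems tested. The 1095 stems at least 64-fold higher had 7.82 at 3 days and 7.15 at 10 days, and 7.19 without eESC_10d C over 1082 stems. With all libraries but leaving out stems without counts in the other layer at either time, the medians were -7.27 and -5.27 for 577 stems, and 7.93 and 7.36 for 510. With such stems at their bound, the medians were -6.48 and -5.11 for the gastrodermal set, and 6.11 and 6.10 for the epidermal set. Stems chosen for an extreme value at 3 days tend to a smaller one elsewhere, and the shifts were not compared by a test. The level of the 3366 gastrodermal stems was higher by a median of 0.38 log2 units in eESC_10d than in eESC_3d, and by 0.075 in gESC_10d than in gESC_3d. Over all 18288 stems these medians were 0.15 and 0.051. Without eESC_10d C the epidermal medians were 0.12 for the gastrodermal stems and 0.094 for all stems.

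**Figure D5:**
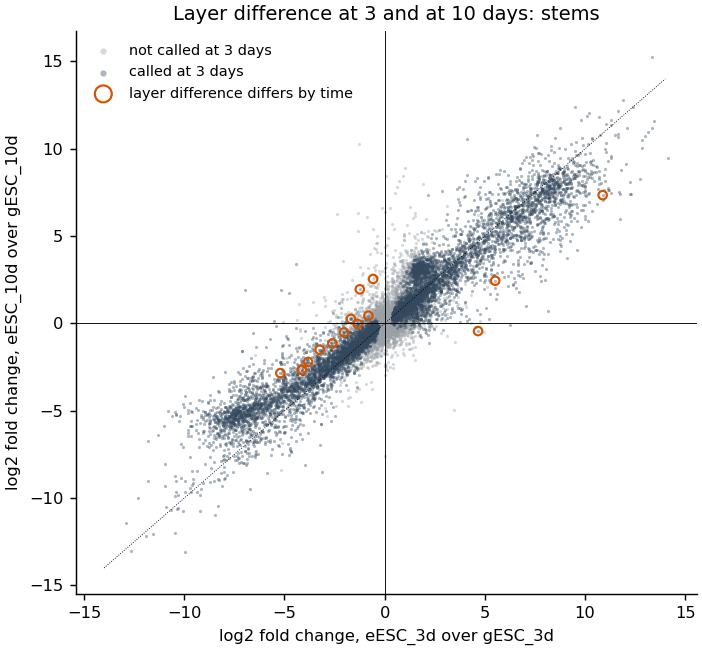
Log2 fold change of each stem, epidermal over gastrodermal, at 10 days against that at 3 days, with stems called at 3 days in dark blue-grey and the others in light grey. The dotted line marks equality, and orange rings mark the 15 stems whose layer difference differed between the times. Most points lie toward the lower left and the upper right, and the lower left arm lies above the line, where the median of the 964 stems was -5.29 at 10 days with eESC_10d C and -7.15 without it.

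A layer difference that itself differed between the times was found for few stems. The difference of the differences was called for 15 stems (0.082%) in edgeR's test, 12 positive and 3 negative, while 1409 (7.70%) had an unadjusted p-value under 0.05. All 12 positive ones had a lower estimate in eESC_3d than in gESC_3d, and in 13 of the 15 the layers were closer at 10 days. The number of calls was 1 with the replicate letter as a block, which was negative, 74 with DESeq2 (50 positive, 24 negative) and 5 to 27 when single libraries were left out, with 27 without eESC_10d C. In a fit of the 13 epithelial libraries 7 were called, 2 positive and 5 negative, so neither the number nor the balance of directions held across settings.

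Stem c25499_g1 had the largest negative one. At 3 days it had 996, 768 and 1028 CPM in eESC_3d A, B and C, against 34.7, 31.2 and 44.5 CPM in gESC_3d A, B and C (log2 fold change 4.66, SE 0.377, adjusted p 6.0e-09). At 10 days it had 33.7, 25.7, 61.6 and 31.5 CPM in eESC_10d A to D, against 73.0, 47.3 and 34.9 CPM in gESC_10d A to C (log2 fold change -0.44, SE 0.302, adjusted p 0.25). The layers did not overlap at 3 days and overlapped at 10 days. The difference of the differences was -5.10 (SE 0.464, adjusted p 2.9e-05), and it was called in all 23 alternatives run. Its contig i02 carried the change, with 918 ± 140 CPM in eESC_3d and 29.3 ± 7.31 CPM in gESC_3d, whereas contig i01 had 12.6 ± 2.40 and 7.47 ± 0.926 CPM and was not called (adjusted p 0.14). In the unsorted body columns at 10 days the actin line had 196 CPM (189 to 203) and the cnnos1 line 194 CPM (187 to 202), above every sorted library except those of eESC_3d.

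Stem c23830_g1 had the largest positive one among stems with a mean of at least 10 CPM. It had 1.75, 2.34 and 2.18 CPM in eESC_3d A, B and C, against 19.1, 21.6 and 19.0 CPM in gESC_3d A, B and C (log2 fold change -3.24, SE 0.183, adjusted p 4.2e-11). Of its 3 contigs, i01 carried most of this gap, with 0.116 CPM in eESC_3d and 15.8 CPM in gESC_3d (log2 fold change -7.06). Contig i03 differed less (-1.28, edgeR adjusted p 0.018), and i02 was not called (-0.78, edgeR adjusted p 0.24). At 10 days the level of the stem was 6.29 ± 0.455 CPM in eESC_10d (SD, n = 4), against 17.9 ± 2.09 CPM in gESC_10d (SD, n = 3). The layers stayed apart at both times, and the epidermal level was higher in all 4 libraries at 10 days than in the 3 at 3 days. The difference of the differences was 1.74 (SE 0.233, adjusted p 0.0030), with an adjusted p of 0.17 when the replicate letter was a block.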

How the data were processed

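The authors deposited whole-number counts for 61501 contigs in 22 libraries, made from polyA-enriched directional Illumina TruSeq libraries per the labels' protocols. Per the submitters' processing notes, cutadapt 1.11, Salmon 0.7.2 and DESeq2 were used, with roles not given in the sources used here. If the counts are rounded Salmon estimates, reads that match several contigs were divided among them. The 14 values of at least 1000000 all end in 0. The 22 columns of a second table, the same counts scaled by the authors, were not used. Read length and transcriptome are not given in the sources used here.

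Contig counts and their sums per stem were analysed in R 4.3.3 by the quasi-likelihood F test of edgeR 4.0.16, in a fit of the 20 sorted libraries with 1 mean per group, TMM scaling and filterByExpr (minimum count 10, minimum total count 15). The stems tested held 99.9% of the counts of each of the 6 libraries. Calls are at a Benjamini-Hochberg adjusted p under 0.05 over all features tested. Intervals are the estimate plus or minus the 95% t quantile times the SE, the log2 fold change divided by the square root of F. CPM use TMM-scaled totals, and plain totals for unsorted libraries. Library distances use log2 CPM with a prior count of 2. Named stems follow the rule in the report and, for the time difference, are the largest in each direction among stems averaging 10 CPM or more in the 13 epithelial libraries. The procedures were tested on simulated data. The groups, rules and lists were chosen with earlier results of these data known. Alternatives included other filters, scalings, DESeq2 1.42.0, thinning to 17159718 counts, sums per component, fits of the compared libraries alone, a replicate block and leaving out single libraries.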

Additional observations from a re-analysis of the deposited data

Results flagged for a closer look

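The layer difference differed between 3 and 10 days for 15 stems by a test of the difference itself, with -5.10 log2 units for c25499_g1 and 1.74 for c23830_g1.

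In groups of 4, single libraries lay far from the others for 4 of the 34 sets of values looked at, where chance flags about 1 in 20. Library eESC_10d C was one of them for 2 measures of gastrodermal stems: it had 4.95% of counts in the stems at least 2-fold higher in gESC_10d, and 0.558% of the gESC_10d level of the stems found only in that group. The others were 0.0335 CPM of c14044_g1 in eESC_10d C, which is 1 count beside libraries at 0, and 6.94 CPM of c25499_g1 in ISC_high D.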

How the results depend on the processing

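Of 280 values recomputed under alternatives for 26 results, 240 stayed within limits: counts within 1.5 times, shares within 1 SD between replicates, medians within 0.3 log2 units, and tested values on the same side of 0 and of the threshold. Beyond them, 34 moved and 6 were no longer called. No fold change or time difference of a named stem changed sign, but the time difference went to 2 positive and 5 negative calls in a fit of the epithelial groups, against 12 and 3. A mean of at least 5 CPM left fewer features to test: 5295 contigs and 5044 stems called, 1510 at least 2-fold higher, 1429 at least 2-fold lower, and 5072 stems at 10 days. Tested against a 2-fold change, 7039 contigs and 5325 stems were called, 6012 stems at 10 days, and 1 stem for the time difference. Within 1.5-fold by their interval were 1605 stems. The time difference gave 9 calls without a filter, 6 with library size alone, 74 with DESeq2, 7 in that fit of the epithelial groups, and 5 to 27 when single libraries were left out. The cause was not tested. At 4-fold the epidermal sets took 17.8% in eESC_3d and 15.8% in eESC_10d, and the gastrodermal sets 25.0% in gESC_3d and 27.5% in gESC_10d. Sets chosen at 10 days took 23.3% in gESC_3d. Without c26324_g1, an alternative chosen after seeing the data, the gastrodermal shares were 23.7% in gESC_3d and 23.1% in gESC_10d. Without eESC_10d C, chosen after seeing the data, 198 in place of 64 stems found only in gESC_3d were at or under 3 counts in eESC_10d, and the 10-day median of stems 64-fold lower was -7.15 in place of -5.29. Whether replicate letters pair the libraries was not settled. Same-letter deviations correlated at 0.24, -0.16 and 0.25 at 3 days and at 0.34, 0.23 and -0.016 at 10 days. Those of different letters ranged from -0.34 to 0.25 at 3 days and from -0.34 to 0.30 at 10 days. With the replicate block, 8885 stems and 9681 contigs were called at 3 days, 8912 stems at 10 days and 1 for the time difference. At depths of 17159718 to 25455639 counts per library, likeness within 2-fold was hardly detectable below 1 CPM.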

Other observations

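The unsorted libraries hold whole body columns of 2 lines of animals, 1 library each and without replicates. Of the 302 stems found only in gESC_3d, 20 (6.62%) had at most 3 counts in the actin line and at least 30 in the cnnos1 line, and 2 (0.662%) the reverse. Of the 377 stems found only in eESC_3d these numbers were 0 and 5 (1.33%). Of the 3598 stems with at least 10 CPM and an interval within 2-fold they were 0 and 1. c14044_g1 was among the first 20.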
